A study of Mus musculus with 7 samples.

Results

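The genes described here encode enzymes and transporters that make, package, recapture and break down monoamines. The list holds 9 genes, Slc18a2, Slc18a1, Th, Ddc, Tph2, Slc6a3, Slc6a4, Maoa and Maob, chosen by symbol, and all 9 were found among the 24062 gene symbols of the count files. The question was whether the higher Slc18a2 of temperature-responsive neurons, which the study reported from the same samples, came with the rest of a monoamine program. RNA had been collected from ZsGreen+ neurons of the medial preoptic area (MPA), a hypothalamic region that controls body temperature. The brain slices came from adult ERα-ZsGreen mice (female per the methods, 10 to 14 weeks old, C57BL/6J background). In these mice a transgenic green fluorescent reporter marks neurons that express the estrogen receptor ERα, encoded by Esr1. After current clamp recordings in which the bath was warmed by 5 °C, from 25 °C to 30 °C, the contents of 2 neurons with similar responses were drawn into pipettes and pooled as 1 sample. There were 4 temperature-responsive samples, whose neurons changed their firing rate past a set cutoff when warmed, and 3 non-responsive samples. All samples of both groups had been through recording, and all carried the reporter. The labels do not say whether samples came from separate mice, so p-values here measure the spread between samples.

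Monoamine neurons make dopamine, noradrenaline, serotonin or histamine from amino acids. Tyrosine hydroxylase (Th) and tryptophan hydroxylase 2 (Tph2) start dopamine and serotonin synthesis, and aromatic amino acid decarboxylase (Ddc) completes both. The vesicular monoamine transporter VMAT2 (Slc18a2), or VMAT1 (Slc18a1) mainly outside the brain, loads the product into vesicles. The plasma membrane transporters for dopamine (Slc6a3) and serotonin (Slc6a4) take it up again after release, and monoamine oxidases A and B (Maoa, Maob) degrade it. A neuron that releases a monoamine usually expresses a synthesis enzyme, VMAT2 and a matching reuptake transporter together, whereas some hypothalamic neurons express only part of this set.

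The libraries of the groups differed as wholes, which bears on every value below. Temperature-responsive libraries held 1914497 to 2814360 counts and 19852 to 21177 genes with at least 1 count. Non-responsive libraries held 3309361 to 5125280 counts and 17818 to 19820 such genes. Neither measure overlapped between groups (exact permutation test, two-sided, p = 0.0286 for each, the smallest p that 4 against 3 samples allow). Depth, the number of genes detected and temperature responsiveness therefore cannot be told apart by group. Esr1 had 10 to 27 counts in every sample. The Y-linked gene Ddx3y had 684 to 1150 counts and Xist 2 to 14 in every sample, although the methods name only female mice. Markers of glia were present throughout, with summed levels of 5 oligodendrocyte genes between 2355 and 3773 CPM (the read count scaled to a common library size with TMM factors). Bulk counts of pooled cell contents do not separate fewer cells with a transcript from less transcript per cell.

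The promoters of the 3 genes of this list that passed the test between groups are shown. Those of Slc18a2 and Th share an element, and any link between it and the levels was not tested. The log2 fold changes of Slc18a2 and Th had opposite signs. The lower Th passed in only 2 of 7 fits that each left out 1 sample. Each line gives 150 bases before and 20 after the RefSeq transcription start (build GRCm38.p6, the assembly behind mm10), 5′ to 3′ on the gene's strand, with the palindromic cAMP response element in capitals. They lie at chr19:59260728-59260897 (plus strand) for Slc18a2, chr7:142899976-142900145 (minus strand) for Th and chr13:73536597-73536766 (plus strand) for Slc6a3.
Slc18a2: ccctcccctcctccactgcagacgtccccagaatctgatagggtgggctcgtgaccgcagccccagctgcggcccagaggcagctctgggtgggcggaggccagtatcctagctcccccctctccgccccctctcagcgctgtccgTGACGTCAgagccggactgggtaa
Th: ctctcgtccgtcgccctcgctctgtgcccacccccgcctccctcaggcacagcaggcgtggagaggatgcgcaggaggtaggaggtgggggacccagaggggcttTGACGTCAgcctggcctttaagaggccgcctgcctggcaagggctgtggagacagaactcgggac
Slc6a3: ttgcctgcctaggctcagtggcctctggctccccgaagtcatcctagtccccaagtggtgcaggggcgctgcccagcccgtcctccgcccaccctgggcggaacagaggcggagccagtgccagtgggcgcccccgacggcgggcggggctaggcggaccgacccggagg

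The element, TGACGTCA, reads the same on both strands and is the recognition sequence of CREB, a factor activated by cAMP and calcium signaling. It lay at -45 to -38 from the RefSeq start of Th and across that of Slc18a2, at -4 to 4 (the first transcribed base is 1). The gene coordinates given below, from another annotation (GENCODE M21), start elsewhere, at 59260896 for Slc18a2 and at 142931128 for Th (minus strand). The positions of the element therefore hold for the RefSeq starts only. RefSeq windows from 250 bases before to 50 bases after the start were given for 7 of the 9 genes (8 windows, all but those of Slc18a1 and Maob). The element was in the windows of Slc18a2 and Th, and in 1.79% of all 32851 windows. The palindromic estrogen response element GGTCANNNTGACC, searched on both strands, was in 0 of the 8 windows and in 0.07% of all windows. The motifs were chosen after the sequences had been read, and a match is a description of letters, not of a bound site.

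Of the 9 genes, 8 had at least 10 counts in at least 3 samples and were tested between groups with edgeR's quasi-likelihood test over 14407 genes. At an adjusted p threshold of 0.05 (Benjamini-Hochberg, over all genes tested), Slc18a2 and Slc6a3 were higher and Th was lower in temperature-responsive samples, and the other 5 did not pass. These 3 of 8 compare with 30% of all genes tested that passed, 15.1% higher and 14.9% lower (2176 and 2151 genes, or 2634 and 1608 with upper quartile scaling). The median log2 fold change was 0.12 over the 8 genes and 0.01 over all genes. Slc6a4 was below the filter and was not tested. The number of the 8 that passed was 2 with DESeq2, with limma-voom and with upper quartile scaling, and 1 after all samples were drawn down to the smallest total. It was also 2 with an offset for GC content, where 23.9% of all genes passed, and 0 once genes detected per sample entered as a covariate, where 0.00694% of all genes passed. It was 1 without temperature-responsive replicate 2 and 1 without non-responsive replicate 3, with Slc18a2 the gene that passed in each case.

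**Figure D1:**
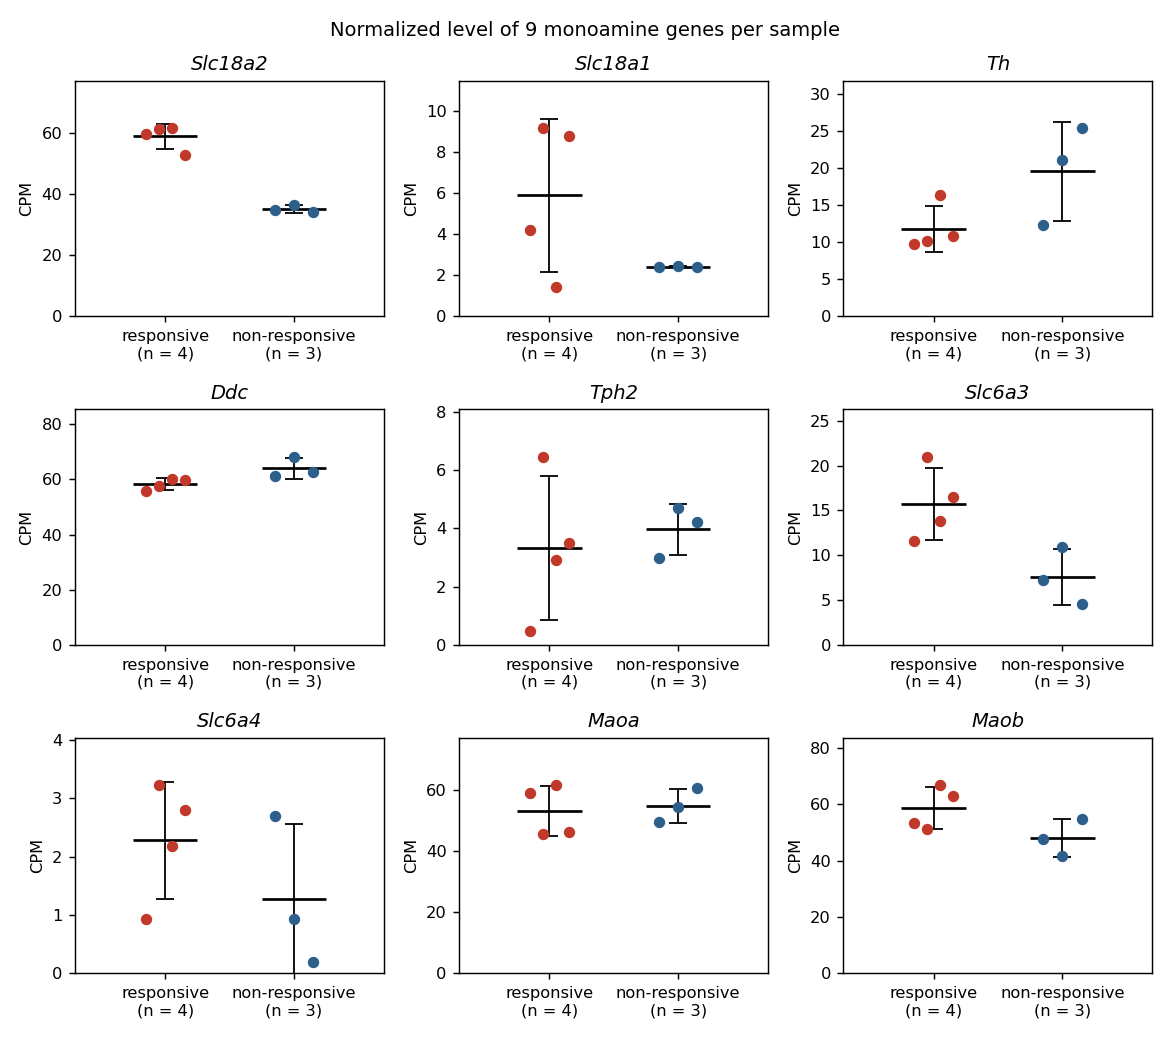
Normalized level (CPM) of each of the 9 genes in each sample, with 4 temperature-responsive samples in red and 3 non-responsive samples in blue. Horizontal lines are group means and bars are SD, cut at 0 for Slc6a4. Slc18a2 and Slc6a3 lie higher in every temperature-responsive sample, Ddc lies slightly lower in every one, and the groups overlap for the other 6 genes.

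Slc18a2, the packaging transporter, occupies positions 59260896 to 59296012 of chromosome 19 (mm10). Its level was 59.9, 61.4, 61.7 and 53.1 CPM in temperature-responsive replicates 1 to 4 and 34.7, 36.7 and 34.2 CPM in non-responsive replicates 1 to 3, from 114 to 195 counts. All temperature-responsive samples lay above all non-responsive ones, as in 17.2% of all genes tested, and the spread within each group was small. The log2 fold change was 0.74 (standard error 0.137, 95% interval 0.46 to 1.02, adjusted p = 0.000524, edgeR), or 1.68-fold in mean CPM. It passed in all 7 fits without 1 of the samples and in 11 of the 12 other alternatives. The exception was genes detected as covariate (log2 fold change 0.77, adjusted p = 0.147, edgeR). The study had reported higher Slc18a2 from the same samples, so these calls repeat that result and are not independent support. Exons of another gene, Gm29261, share 2.12% of its exonic bases.

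Slc18a1, which encodes the other vesicular monoamine transporter, was about an order of magnitude lower than Slc18a2 per kilobase. It had 4.18, 9.15, 1.45 and 8.78 CPM in temperature-responsive samples and 2.40, 2.45 and 2.40 CPM in non-responsive samples, from 4 to 25 counts. Temperature-responsive samples spread from below to well above the non-responsive ones. The log2 fold change of 1.25 had a standard error of 0.527 and did not pass (adjusted p = 0.0734, edgeR). Without temperature-responsive replicate 3, the lowest sample, it was 1.60 and passed (adjusted p = 0.0145, edgeR).

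Th, the rate-limiting enzyme of dopamine and noradrenaline synthesis, lies on chromosome 7 from 142892752 to 142931128. It had 9.75, 10.2, 16.3 and 10.9 CPM in temperature-responsive samples and 12.3, 21.1 and 25.4 CPM in non-responsive samples, from 19 to 127 counts. The groups overlapped, since non-responsive replicate 1 lay below temperature-responsive replicate 3. The log2 fold change was -0.73 (standard error 0.256, 95% interval -1.26 to -0.20, adjusted p = 0.0328, edgeR), opposite in sign to that of Slc18a2. This call did not pass under 8 of the 12 alternatives other than leaving out a sample. It passed in only 2 of the 7 fits that each left out a sample. Without non-responsive replicate 3, the highest sample, the log2 fold change was -0.51 (adjusted p = 0.214, edgeR). With genes detected as covariate its sign turned (0.033).

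Ddc converts the products of Th and Tph2 into dopamine and serotonin and lies on chromosome 11 from 11814101 to 11898144. Its level was 55.7, 57.6, 60.3 and 59.7 CPM in temperature-responsive samples and 61.1, 68.3 and 62.6 CPM in non-responsive samples. The groups did not overlap, as in 35.4% of all genes tested, but lay close together. The log2 fold change of -0.13 (95% interval -0.39 to 0.12) did not pass (adjusted p = 0.432, edgeR). The upper bound of this interval lies below the lower bound of that of Slc18a2.

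Tph2, the serotonin synthesis enzyme of brain neurons, was scarce, with 1 to 25 counts per sample. Its level was 0.464, 6.46, 2.90 and 3.51 CPM in temperature-responsive samples and 3.00, 4.70 and 4.20 CPM in non-responsive samples. Temperature-responsive samples were the lowest and the highest of the 7. The log2 fold change was -0.30 with an interval from -1.38 to 0.79 (adjusted p = 0.700, edgeR), so the interval covered sizeable differences of either sign.

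Slc6a3, the dopamine reuptake transporter, lies on chromosome 13 from 73536747 to 73578672. It had 11.6, 21.0, 13.8 and 16.5 CPM in temperature-responsive samples and 7.19, 10.9 and 4.60 CPM in non-responsive samples, from 23 to 58 counts. All temperature-responsive samples lay above all non-responsive ones, as in 17.2% of all genes tested. The nearest samples of the groups differed by less than the SD of either group (4.04 and 3.17 CPM). The log2 fold change was 1.03 (standard error 0.299, 95% interval 0.42 to 1.65, adjusted p = 0.0115, edgeR). After all samples were drawn down to the smallest total it was 0.70 and did not pass (adjusted p = 0.110, edgeR). It also did not pass without temperature-responsive replicate 2 (0.89), without non-responsive replicate 3 (0.75) or with genes detected as covariate (0.28). Among genes tested with a mean below 20 CPM, which include Slc6a3, Th, Tph2 and Slc18a1, 11.9% passed as higher and 4.24% as lower, whereas 16.9% and 20.9% did so at 20 CPM or above.

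Slc6a4, the serotonin reuptake transporter, had 1 to 9 counts per sample, too few to be tested. Its level was 0.929, 3.23, 2.18 and 2.81 CPM in temperature-responsive and 2.70, 0.941 and 0.200 CPM in non-responsive samples. In temperature-responsive replicate 1 and non-responsive replicate 3 it was under the floor of 3 counts, which corresponded to 0.564 to 1.62 CPM and covers counting error alone, since no molecular identifiers were used. The groups overlapped.

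The monoamine oxidases are mitochondrial enzymes of neurons and glia, with Maob prominent in astrocytes, and their genes are neighbors on the X chromosome, Maoa from 16619698 to 16687818 and Maob from 16709282 to 16817366. Maoa had 59.0, 45.8, 61.7 and 46.4 CPM in temperature-responsive samples and 49.7, 54.4 and 60.8 CPM in non-responsive samples. The groups lay across each other, and the log2 fold change was -0.05 (95% interval -0.34 to 0.24, adjusted p = 0.826, edgeR). Maob had 53.4, 51.1, 66.8 and 62.9 CPM in temperature-responsive samples and 47.6, 41.6 and 54.8 CPM in non-responsive samples. Here only non-responsive replicate 3 reached into the temperature-responsive range, and the log2 fold change of 0.30 (standard error 0.143) did not pass (adjusted p = 0.118, edgeR). The summed level of 5 astrocyte genes was 1083 to 1261 CPM in temperature-responsive and 876 to 1068 CPM in non-responsive samples, so it stood on the same side as Maob. Within that list Slc1a3 (log2 fold change 0.44, adjusted p = 0.00342, edgeR) and Gja1 (0.63) passed as higher and Gfap (-1.01) as lower. The part of astrocyte transcripts in the Maob level was not tested.

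Ratios of counts within a sample do not depend on the scaling of libraries. Slc18a2 counts divided by Ddc counts were 1.07, 1.07, 1.02 and 0.888 in temperature-responsive samples and 0.569, 0.537 and 0.546 in non-responsive samples. Slc18a2 over Th was 3.78 to 6.14 in temperature-responsive and 1.35 to 2.83 in non-responsive samples. Slc18a2 over Maoa was 1.00 to 1.34 and 0.562 to 0.699. The groups did not overlap in these 3 ratios, and they did overlap in Slc18a2 over Maob (0.844 to 1.20 and 0.624 to 0.882). These ratios were chosen after the levels had been seen and are given without a test.

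Levels per kilobase of exon place the genes in order. In temperature-responsive samples the mean was 21.0 CPM per kilobase for Maob, 13.1 for Ddc, 12.8 for Maoa, 11.3 for Slc18a2, 4.99 for Th, 4.55 for Slc6a3, 1.16 for Tph2, 1.09 for Slc18a1 and 0.505 for Slc6a4. In non-responsive samples it was 17.2 for Maob, 14.3 for Ddc, 13.2 for Maoa, 8.29 for Th, 6.74 for Slc18a2, 2.19 for Slc6a3, 1.38 for Tph2, 0.447 for Slc18a1 and 0.282 for Slc6a4. By these means Slc18a2 stood above Th in temperature-responsive and below it in non-responsive samples, although the samples of the latter overlapped for these genes. Within each group Ddc and Maoa overlapped across samples. Among temperature-responsive samples Slc18a2 and Maoa also overlapped, as did Th and Slc6a3, and Tph2 and Slc18a1. Among non-responsive samples Maob and Ddc overlapped, as did Slc6a3 and Tph2. Slc6a4 overlapped Slc18a1 in both groups and Tph2 among temperature-responsive samples.

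The lowest genes can be set beside olfactory receptor genes, which act mainly in the sensory neurons of the nose. Over 1090 such genes the level was 0.0969 to 0.229 CPM per kilobase in temperature-responsive and 0.0126 to 0.0704 in non-responsive samples, without overlap (exact permutation test on the means, two-sided, p = 0.0571). Slc18a2 was at least 51.2 times and Slc6a3 at least 26.5 times that level in every sample. Th was at least 18.9 times that level in every sample. Slc6a4 was 2.12 to 8.56 times that level, Slc18a1 2.42 to 35.2 times and Tph2 1.66 to 116 times. The part of such reads in the monoamine gene levels was not tested.

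**Figure D2:**
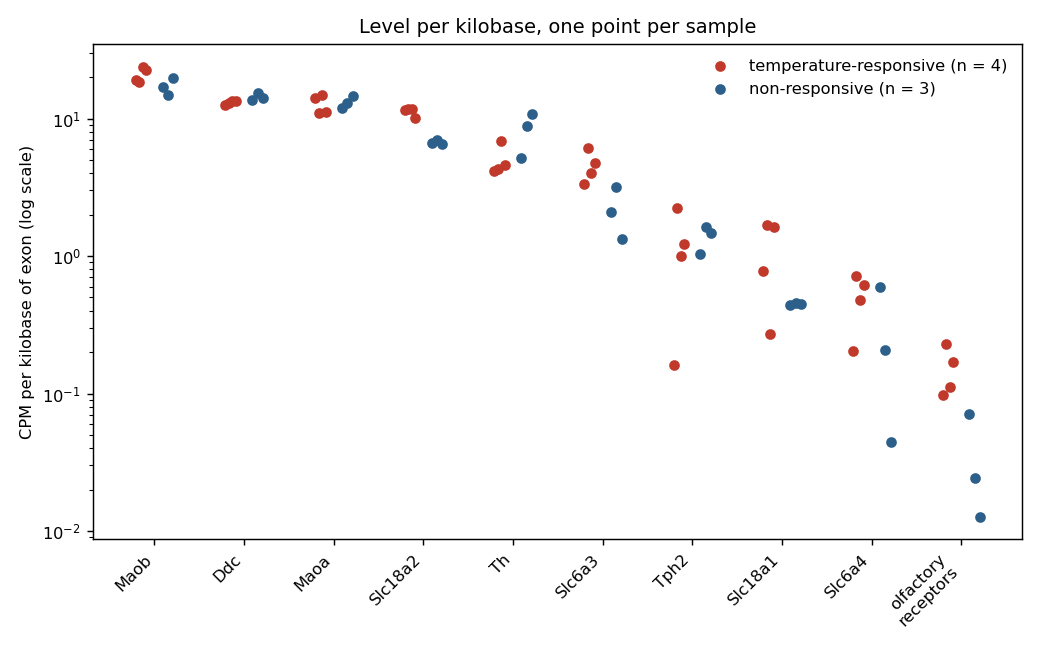
Level in CPM per kilobase of exon (log scale) for the 9 genes and for olfactory receptor genes as a group, 1 point per sample, temperature-responsive in red (n = 4) and non-responsive in blue (n = 3). Maob, Ddc and Maoa have the highest means in both groups, and Slc18a2 and Th change order between groups. Tph2, Slc18a1 and Slc6a4 have the lowest means of the 9 genes. The olfactory receptor level is higher in temperature-responsive samples.

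The other genes of the pathway were taken from lists of 31 genes by role, of which 18 were tested. In temperature-responsive samples 5 of the 18 were higher and 4 lower, against 30% of all genes that passed, and the median log2 fold change was 0.19. With genes detected as covariate 0 passed. The count was 2 without non-responsive replicate 2, 2 without non-responsive replicate 3 and 4 without temperature-responsive replicate 2, where the count over all genes also fell, from 4327 to 2986, 2620 and 2981.

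Tetrahydrobiopterin is the cofactor that Th and the tryptophan hydroxylases need. Of its 5 genes, Pts, the second enzyme of its synthesis, was higher, at 184 ± 24.2 CPM (SD, n = 4) against 132 ± 24.6 CPM (SD, n = 3), a difference of 0.47 on the log2 scale (adjusted p = 0.00530, edgeR). Its call ended with the GC content offset (0.26, adjusted p = 0.0768, edgeR). The same held when non-responsive replicate 3 was left out (0.33, adjusted p = 0.0558, edgeR). Qdpr, which regenerates the cofactor, was also higher (0.36, adjusted p = 0.0356, edgeR). It lost its call without temperature-responsive replicate 1 (0.25) or 2 (0.35) and without non-responsive replicate 2 (0.27) or 3 (0.30). Spr, which catalyzes the last synthesis step, was lower (-0.54, standard error 0.166, adjusted p = 0.0167, edgeR), but not without temperature-responsive replicate 2 (-0.40) or non-responsive replicate 2 (-0.46). The rate-limiting enzyme Gch1 had 8 to 30 counts and did not pass (0.65, adjusted p = 0.187, edgeR), and Pcbd1 did not pass either (-0.27). The 5 genes thus passed in both directions or not at all.

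Among further breakdown genes, Aldh2 and Aldh3a2, aldehyde dehydrogenases that can act on the aldehydes formed by monoamine oxidases, were lower in temperature-responsive samples. Aldh2 had 32.7 ± 4.50 CPM (SD, n = 4) against 47.8 ± 7.36 CPM (SD, n = 3), a difference of -0.55 on the log2 scale (adjusted p = 0.0112, edgeR). Aldh3a2 had 59.3 ± 4.37 CPM (SD, n = 4) against 74.2 ± 7.52 CPM (SD, n = 3), a difference of -0.32 (adjusted p = 0.0495, edgeR). For both genes all temperature-responsive samples lay below all non-responsive ones, as in 18.2% of all genes tested. Aldh2 did not pass without non-responsive replicate 2 (-0.51) or 3 (-0.46). Aldh3a2 stood at the threshold and passed in only 1 of the 7 fits that each left out a sample. Aldh1a1, a dehydrogenase of some dopamine neurons, and Hnmt, which methylates histamine, had log2 fold changes of 0.13 and 0.05 and did not pass.

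Among other transporters, Slc22a3, a low-affinity monoamine carrier of glia and other cells, was higher, with 10.4 ± 3.48 CPM (SD, n = 4) against 4.66 ± 1.23 CPM (SD, n = 3), a difference of 1.19 on the log2 scale (adjusted p = 0.0136, edgeR). Slc22a3 did not pass without temperature-responsive replicate 4 (0.98) or non-responsive replicate 2 (1.03). Slc29a4, the plasma membrane monoamine transporter, did not pass (-0.44, adjusted p = 0.128, edgeR). Hdc, which makes histamine, was the only 1 of 4 further synthesis enzymes that could be tested, and it did not pass (-0.07, adjusted p = 0.851, edgeR). Of 13 transcription factors of monoamine neurons, 5 were tested, and Gata2 (1.41, adjusted p = 0.0131, edgeR) and Foxa1 (0.88, adjusted p = 0.0389, edgeR) were higher. Both were low, with means of 8.15 and 9.79 CPM in temperature-responsive samples, and Foxa1 did not pass in any of the 7 fits that left out a sample. Gata2 lost its call without non-responsive replicate 2 (1.30) or 3 (1.12). Nr4a2, a factor of dopamine neurons that neuronal activity also induces, did not pass (0.25, adjusted p = 0.159, edgeR).

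The summed level of 5 endothelial genes was 75.2 to 276 CPM in temperature-responsive and 17.4 to 52.7 CPM in non-responsive samples. Of the 5, 3 passed as higher, Cldn5 (log2 fold change 1.71, adjusted p = 0.00208, edgeR), Pecam1 (2.04) and Tek (1.95), with overlap between groups for Tek. Temperature-responsive replicate 3 had the highest level of all 3. The Slc18a2 level of that sample was 61.7 CPM, and those of temperature-responsive replicates 1, 2 and 4 were 59.9, 61.4 and 53.1 CPM. The summed endothelial level did not overlap between groups, so it cannot be told apart from group. The part of endothelial transcripts in the higher Slc22a3 and Slc18a2 was not tested.

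**Figure D3:**
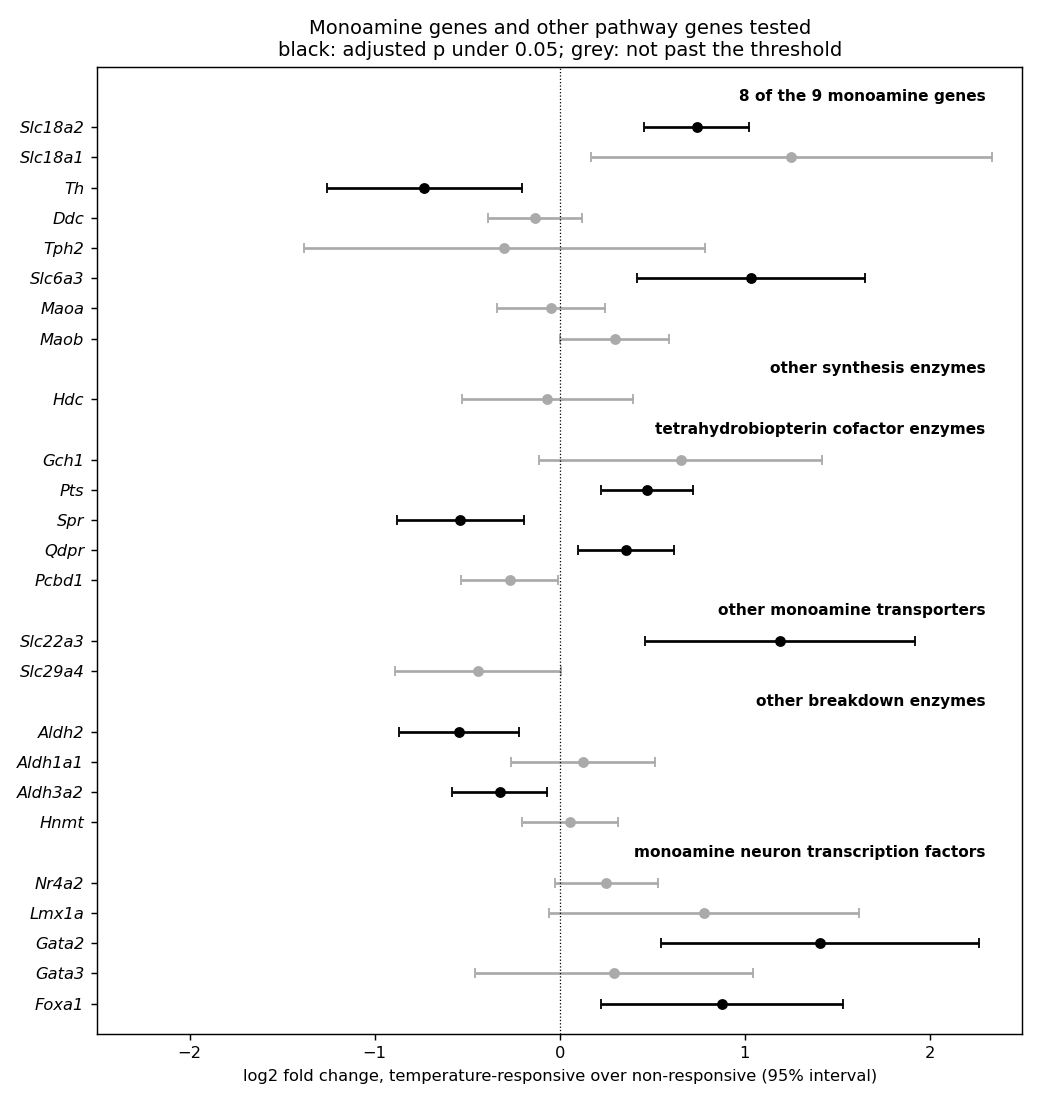
Log2 fold change of temperature-responsive over non-responsive samples with its 95% interval from edgeR, for the 8 tested genes of the list and other pathway genes grouped by role. Black marks genes past the threshold of 0.05 and grey marks the rest. Slc18a2 and Slc6a3 lie to the right, Th to the left, and Aldh2 and Aldh3a2 lie to the left.

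The tested genes whose log2 CPM followed that of Slc18a2 most closely over the 7 samples were Phf6 (Pearson's r = 0.997), Bclaf1 (0.994), Zfp867 (0.993), Plekha3 (0.992) and Tor1aip1 (0.991), out of 14406 genes compared. All 5 were higher in temperature-responsive samples without overlap, as were 17.2% of all genes tested. They were chosen for likeness to Slc18a2, whose groups do not overlap, so this split follows largely from the choice. None of the 5 encodes a monoamine enzyme or transporter. Within the list, r with Slc18a2 was 0.816 for Slc6a3, 0.582 for Maob, 0.436 for Slc18a1, -0.09 for Maoa, -0.29 for Tph2, -0.65 for Th and -0.73 for Ddc. These values describe 7 samples that share a group difference, depth and genes detected, and carry no test.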

How the data were processed

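Per the methods, RNA from 2 pooled neurons per sample was amplified by SMART-seq V4 and sequenced. The authors aligned reads to mm10 with STAR 2.6.0, removed PCR duplicates with RmDup, and deposited htseq-count (HTSeq 0.9.1) read counts per gene symbol, without normalization. Without molecular identifiers, such removal may discard separate molecules too. The annotation, the strand setting and the treatment of overlapping genes are not given in the sources used here.

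Groups and replicate numbers came from the labels. Genes reaching 10 counts in 3 or more samples entered the quasi-likelihood test of edgeR 4.0.16 (robust, TMM, two-sided) in R 4.3.3, and p-values were adjusted by Benjamini-Hochberg over all of them. The authors' own test was DESeq2, run here as an alternative (1.42.0), beside limma 3.58.1 and a GC content offset made with mgcv 1.9.3. Standard errors were derived from fold changes and F statistics, and 95% intervals from them. CPM used total counts and TMM factors. Exon lengths and gene coordinates came from GENCODE M21 (same build), and promoters from RefSeq. The fit was tested on simulated data.

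The genes and lists were chosen with earlier results of these data known. All 9 genes, every other pathway gene past the threshold and the 5 genes most correlated with Slc18a2 were named by rule, except a result that is not reported here. Pairs of samples of 1 group differed beyond sampling noise (lowest chi-square per degree of freedom 2.03).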

Additional observations from a re-analysis of the deposited data

How the results depend on the processing

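With genes detected as covariate, 1 of all genes passed in place of 4327, 0 of the 8 monoamine genes and 0 other pathway genes. Slc18a2 (0.77), Slc6a3 (0.28) and Th (0.033, sign turned) then did not pass, and Maoa turned to 0.32. That number did not overlap between the groups, so this fit can hardly separate it from the group difference. Estimates moved either way, Slc18a2 from 0.74 to 0.77 and Maob from 0.30 to 0.44, but Slc6a3 from 1.03 to 0.28. With downsampling, 1 monoamine gene passed, Slc6a3 fell to 0.70 and Maoa was 0.038. Th did not pass with DESeq2 (-0.72), limma-voom (-0.72), upper quartile scaling (-0.66), downsampling (-0.67), the GC content offset (-0.64), the replicate block (-0.68) or the block with GC content offset (-0.58). Maoa turned to 0.017 with upper quartile scaling and 0.0086 with the replicate block. Under block and GC content offset together, 2809 genes and 3 other pathway genes passed. Upper quartile scaling gave 2634 higher and 1608 lower genes, against 2176 and 2151. The labels do not say whether same-numbered samples share more than a number. Their mean correlation of deviations was -0.053, against 0.017 for different numbers, which does not settle it. The replicate block changed no other call of a monoamine gene. Of the other pathway genes named, the replicate block ended the calls of Slc22a3 (0.97), Foxa1 (0.89) and Aldh3a2 (-0.31). Temperature-responsive replicate 4 has no same-numbered partner, so in the block fits it adds nothing to the group difference. Leaving that sample out without a block gave similar values (Slc22a3 0.98, Foxa1 0.88, Aldh3a2 -0.31, Th -0.68), and none of these passed. Calls lost under the block therefore cannot be told apart from the loss of that sample.

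Fits that each left out 1 sample gave 2620 to 4583 genes, 1 to 4 monoamine genes and 2 to 8 other pathway genes. Log2 fold changes were 0.72 to 0.80 for Slc18a2, 0.75 to 1.43 for Slc6a3, -0.95 to -0.51 for Th, 0.95 to 1.60 for Slc18a1, -0.74 to 0.033 for Tph2, -0.13 to 0.031 for Maoa, -0.16 to -0.08 for Ddc and 0.20 to 0.41 for Maob. Causes were not tested further. Counts from 1 to 25 limit Slc18a1, Tph2 and Slc6a4.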

Other observations

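Of the 31 other pathway genes, 13 were below the filter, with at most 15 counts in any sample. They include the enzymes that make noradrenaline and adrenaline (Dbh and Pnmt), the noradrenaline transporter (Slc6a2) and the factor Fev of serotonin neurons. The mean CPM of all 13 was higher in temperature-responsive samples, and for 6 of them every temperature-responsive sample lay above every non-responsive one. Over all 8390 genes below the filter with at least 1 count, these shares were 88.1% and 16.4%. Dbh had 4, 14, 4 and 12 counts in temperature-responsive samples and 3, 3 and 1 in non-responsive samples, and Tph1 3, 10, 6 and 7 against 1, 0 and 0. Olfactory receptor genes together stood at 338 to 799 CPM in temperature-responsive and 44.0 to 245 CPM in non-responsive samples, in the same direction. The part of such reads in the values of the 13 genes was not tested.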
